A study of Mus musculus with 12 samples.

Results

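The 90 genes described here encode potassium channel subunits. They are every gene of the table of 36131 genes whose symbol starts with Kcn, a family letter and a number, with 3 exceptions. Kcnj8, Kcnj10 and Kcne3 were set apart, with earlier results of these data known, and are described with the partner genes of potassium handling. Retinas of 12 C57BL/6J wildtype mice were sequenced at P18, with 1 library per mouse and 4 mice per group. RA-PBS mice (animals 1 to 4) were raised in room air and given placebo. O2-PBS mice (animals 5 to 8) and O2-IC100 mice (animals 9 to 12) were kept in 75% O2 from P7 until their return to room air at P12, with nursing mothers rotated out of the oxygen. This exposure is the oxygen-induced retinopathy model, in which retinal vessels are lost in oxygen and overgrow afterwards. O2-IC100 mice received IC100, a humanized antibody against the inflammasome adaptor ASC. It was given at 10 µg/g by the intraperitoneal route on P12, P14 and P16. O2-PBS mice were given placebo, as RA-PBS mice were, and the labels list the same injection days for all groups. The labels do not separate the route of the placebo, which the study's methods describe as intravitreal, so the agent and its route cannot be told apart.

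Potassium channels let potassium leave a cell and so set its resting voltage and end its electrical signals. Voltage-gated channels open when a cell depolarizes, inward rectifiers and two-pore leak channels hold the resting voltage, calcium-activated channels open as calcium rises, and auxiliary subunits change how the pore-forming subunits gate or reach the membrane. In the retina, the silent subunit Kv8.2 (Kcnv2) takes part in a current of photoreceptor inner segments, BK channels with a beta1 subunit (Kcnmb1) relax vascular smooth muscle, and Kir4.1 (Kcnj10) buffers potassium in Müller glia.

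Total counts per retina were between 14907143 and 24438082. O2-IC100 animal 10 stood apart before any comparison. Crystallin and other lens genes made up 50.7% of its counts and rod genes 0.331%, against 3.80% to 4.71% for rod genes in the other 11 retinas. The potassium channel genes made up 0.0448% of its counts and 0.435% to 0.586% in the others, and 61 of the 76 tested members had their lowest value there. All results are therefore given for 11 animals and then for all 12. Lens genes were also at 1.08%, 4.03% and 1.23% of counts in RA-PBS animals 2, 3 and 4, at 0.00119% in RA-PBS animal 1 and at most 0.0119% in each of the other 7 retinas. Y-linked genes were high in RA-PBS animals 1 to 3, O2-PBS animal 8 and O2-IC100 animals 9, 11 and 12. Their sum was 223 to 324 CPM in these retinas and 4.04 to 9.85 in the rest, normalized over all 12 animals. The sexes were therefore not balanced between groups.

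A gene's level per length, its counts divided by exonic length and expressed as TPM, allows one channel gene to be set beside another. Over 11 retinas, Kcnj14 held 19.6% and Kcnv2 13.9% of the summed level of all 90 members. Kcnj14, the inward rectifier Kir2.4, was at 654 ± 64.0 TPM in RA-PBS (SD, n = 4), 622 ± 57.7 in O2-PBS (n = 4) and 662 ± 26.1 in O2-IC100 (n = 3). Kcnv2 was at 419 ± 41.7, 480 ± 44.2 and 481 ± 23.3 TPM in the same order. Kcnj14 lay above Kcnv2 in all 3 groups by more than the sum of their SDs.

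Other high levels were those of Kcnab2, the Kv beta2 subunit, at a mean of 231 TPM, Kcne2, a single-pass auxiliary subunit, at 153, and Kcna5, the delayed rectifier Kv1.5, at 102. Kcnj9 (GIRK3) at 83.3 TPM, Kcnh2 (ERG1) at 64.1, Kcnc1 (Kv3.1) at 59.9, Kcnk1 (TWIK1) at 59.4 and Kcnma1, the pore of the BK channel, at 55.6 TPM were also among the 12 highest, which together held 74.9% of the summed level. At the other end, 14 members were too low to test. Kcnk16 had no count in any of the 12 retinas. The other 13, among them Kcnn4, the intermediate-conductance calcium-activated channel, had at most 14 counts in any of the 11 retinas. Levels per length carry no TMM normalization, and on this scale the median gene was 0.18 (log2) higher in O2-PBS than in RA-PBS, so differences between groups are given from normalized CPM, counts relative to a library size scaled by TMM (the trimmed mean of M-values).

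**Figure D1:**
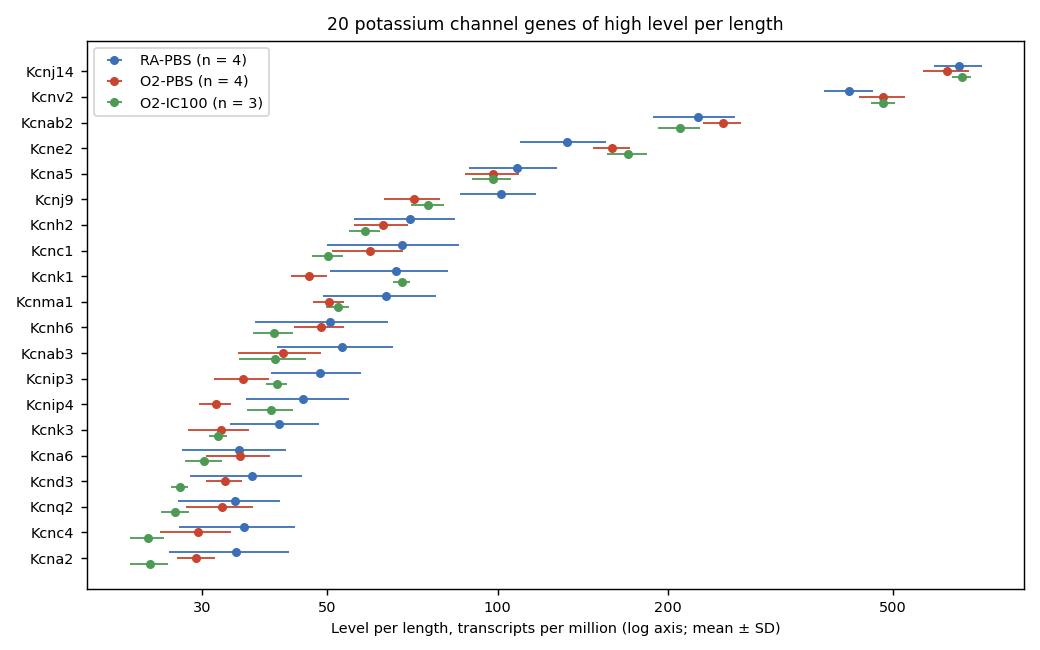
Level per length in TPM (log axis, mean ± SD) of 20 potassium channel genes of high mean level, in RA-PBS (n = 4), O2-PBS (n = 4) and O2-IC100 without animal 10 (n = 3). Kcnj14 and Kcnv2 lie at the top in every group.

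Oxygen exposure was addressed first, by O2-PBS against RA-PBS. Of the 76 tested members, 9 fell and 3 rose in O2-PBS by edgeR's quasi-likelihood test. The thresholds were 1.5 for the fold change, 0.05 for p and 0.1 for p after Benjamini-Hochberg adjustment. Among all 16688 tested genes, 2.18% fell and 4.09% rose at these thresholds, so the count of members that fell was above the background and the count that rose was near it. The genes that fell were the inward rectifiers Kcnj12, Kcnj3 and Kcnj9, the voltage-gated Kcnc2 and Kcna4, the leak channel Kcnk1 and the auxiliary subunits Kcnip3, Kcnip4 and Kcne1l. Those that rose were Kcnq1, Kcnmb1 and Kcne4. The 9 genes that fell had a median of 34.4 normalized CPM over 11 retinas and the 3 that rose lay between 0.972 and 2.34.

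The median log2 fold change of the 76 members was -0.28, with 57 of them below 0 (75.0%), where the median of all tested genes was -0.01 and 51.2% were below 0. On the TPM scale, without TMM, 47 of the 76 members were below 0, and 57 were below the median of all genes. An unadjusted p-value under 0.05 was reached by 34 members (44.7%), beside 21.9% of all tested genes. With all 12 animals edgeR's quasi-likelihood test called 0 members in either direction, with 8 at an unadjusted p under 0.05 (10.5%, beside 7.12% of the 16486 genes tested in both fits). In that fit 0.782% of 16489 genes rose and 0.0243% fell, the median of the members was -0.28, and DESeq2 on the same 12 animals called 3 members higher and 0 lower.

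**Figure D2:**
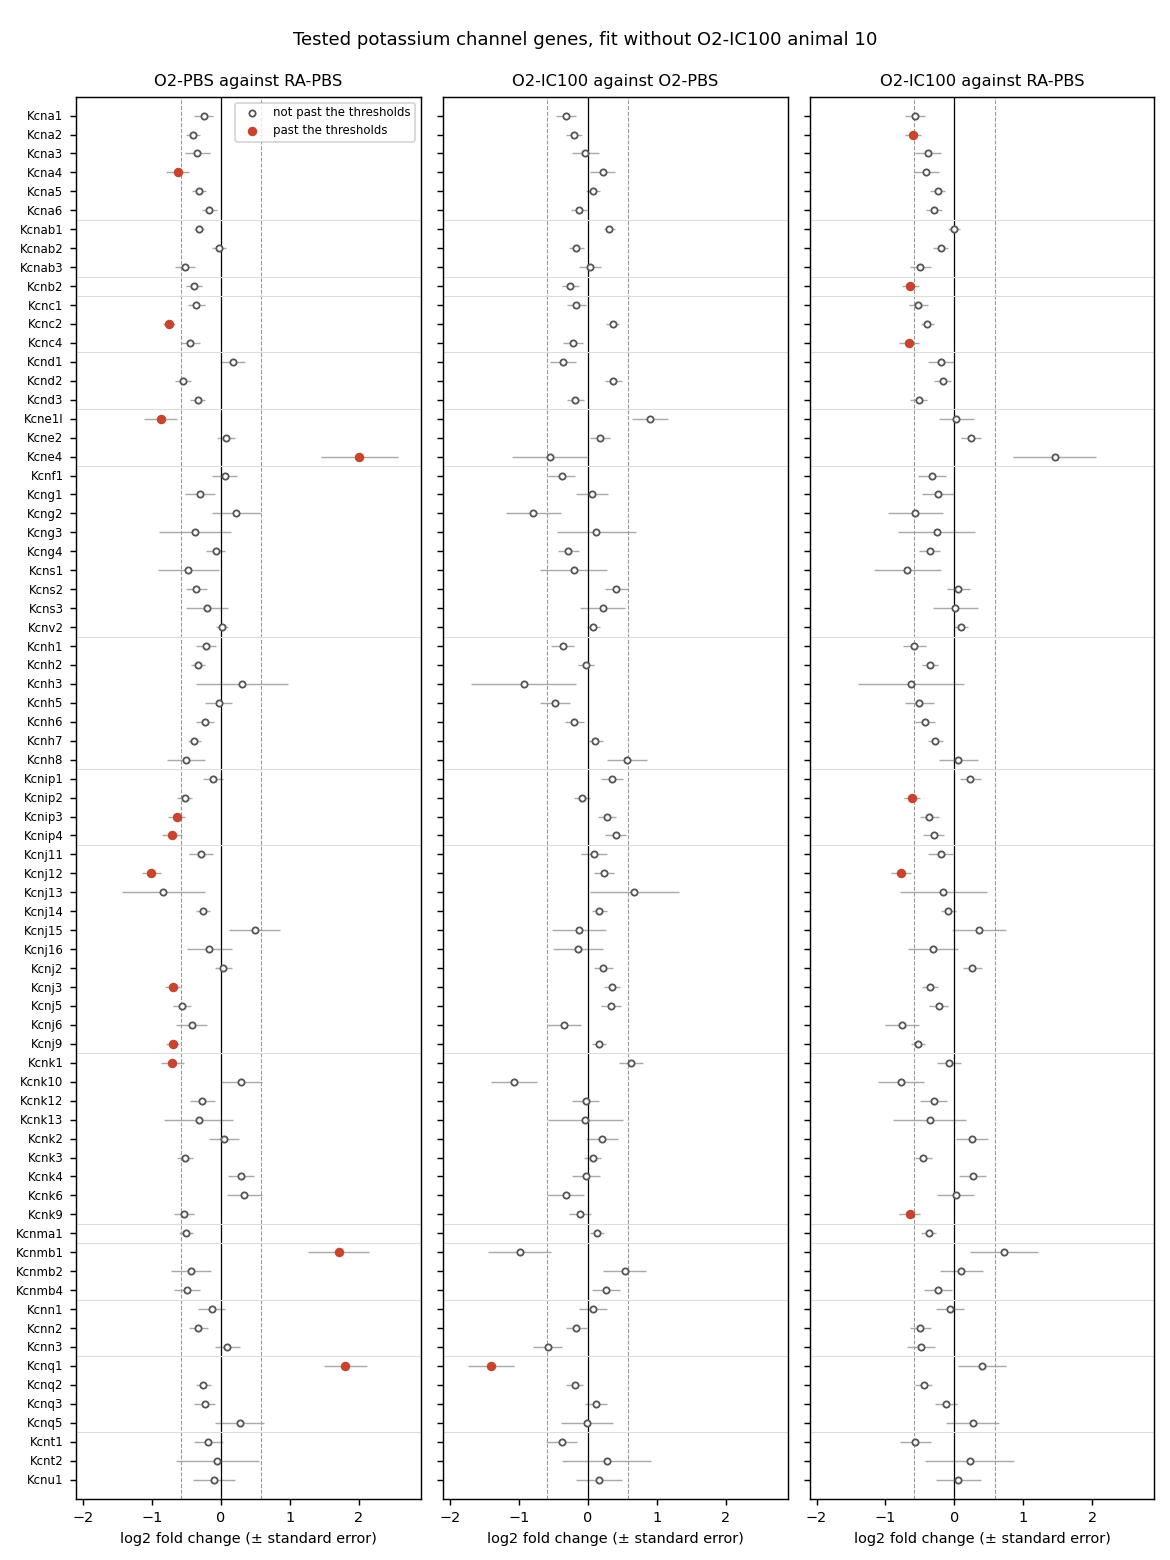
log2 fold change ± standard error (x axis) of 73 of the tested potassium channel genes (rows, ordered by family, thin lines between families) in the 3 comparisons, from edgeR's quasi-likelihood fit of 11 animals. Filled points passed the thresholds and dashed lines mark a fold of 1.5. In O2-PBS against RA-PBS 56 of 73 points lie left of 0, and the 3 points furthest to the right are Kcne4, Kcnq1 and Kcnmb1.

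Inward rectifiers were the family with the highest number of genes that fell, 3 of 11 tested. By share the KChIP auxiliary subunits, with 2 of 4, and the KCNE subunits, with 1 of 3, were higher. Kcnj12, the strong rectifier Kir2.2, was at 20.1, 15.6, 19.1 and 13.5 normalized CPM in RA-PBS animals 1 to 4, at 8.62, 8.38, 8.63 and 8.26 in O2-PBS animals 5 to 8, and at 10.0, 10.6 and 9.30 in O2-IC100 animals 9, 11 and 12. Every oxygen-exposed value was below every room air value. The difference between O2-PBS and RA-PBS was -1.01 on the log2 scale (SE 0.134, adjusted p = 0.00059 by edgeR's quasi-likelihood test). In the lens-rich animal 10 Kcnj12 was at 101 CPM, against at most 18.1 in the other retinas under the normalization of all 12. Among RA-PBS retinas the highest value, 20.1, was in animal 1, which had almost no lens counts. The next, 19.1, was in animal 3, which had the most lens counts of that group. The part of lens tissue in these values was not tested.

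Kcnj3 and Kcnj9 encode GIRK1 and GIRK3, subunits of channels that G proteins open after an inhibitory transmitter binds its receptor. Kcnj3 was at 23.9, 24.0, 19.7 and 21.1 normalized CPM in RA-PBS, at 12.8, 13.6, 13.7 and 14.4 in O2-PBS, and at 18.3, 18.9 and 15.0 in O2-IC100. The 3 groups did not overlap, with O2-IC100 between the others, and the O2-PBS value was lower than RA-PBS by -0.70 (SE 0.109, adjusted p = 0.002, edgeR). Kcnj9 was at 135.7, 122.9, 103.2 and 110.9 in RA-PBS, at 82.3, 66.6, 70.3 and 72.3 in O2-PBS, and at 84.1, 77.7 and 84.0 in O2-IC100. All O2-PBS values were again below all RA-PBS values (log2 fold change -0.70, SE 0.0953, adjusted p = 0.000753, edgeR), and those of O2-IC100 overlapped with O2-PBS. Of their family, Kcnj2 (Kir2.1) and Kcnj14 did not pass the test, with 0.03 (SE 0.127) and -0.26 (SE 0.104) on the log2 scale, and the family's median was -0.43.

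The promoters of these 3 rectifiers are shown because the genes fell together, and those of Kcne4 and Kcnmb1 as 2 of the 3 genes that rose. Kcnq1 is the third. Each is the RefSeq sequence from 250 bases before to 50 bases after the transcription start on GRCm38.p6, read 5′ to 3′ on the gene's strand. Capitals mark the core of the hypoxia response element, ACGTG or GCGTG, on either strand, where 2 cores overlap in the palindrome CACGTG. Kcnj12 lies on the plus strand at chr11:61065554-61065853, Kcnj3 on the plus strand at chr2:55435720-55436019, Kcnj9 on the minus strand at chr1:172329273-172329572, Kcne4 on the plus strand at chr1:78816661-78816960 and Kcnmb1 on the plus strand at chr11:33962763-33963062.
Kcnj12: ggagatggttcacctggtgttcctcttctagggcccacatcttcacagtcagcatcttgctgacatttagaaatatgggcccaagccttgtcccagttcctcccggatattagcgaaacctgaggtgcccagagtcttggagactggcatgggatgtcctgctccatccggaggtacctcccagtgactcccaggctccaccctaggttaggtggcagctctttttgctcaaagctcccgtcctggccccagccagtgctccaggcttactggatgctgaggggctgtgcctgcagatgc
Kcnj3: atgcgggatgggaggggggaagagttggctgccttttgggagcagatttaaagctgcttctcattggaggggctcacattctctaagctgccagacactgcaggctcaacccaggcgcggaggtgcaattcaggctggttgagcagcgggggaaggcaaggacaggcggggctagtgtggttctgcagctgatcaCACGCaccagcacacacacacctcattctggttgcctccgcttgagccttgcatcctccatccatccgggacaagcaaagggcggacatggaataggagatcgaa
Kcnj9: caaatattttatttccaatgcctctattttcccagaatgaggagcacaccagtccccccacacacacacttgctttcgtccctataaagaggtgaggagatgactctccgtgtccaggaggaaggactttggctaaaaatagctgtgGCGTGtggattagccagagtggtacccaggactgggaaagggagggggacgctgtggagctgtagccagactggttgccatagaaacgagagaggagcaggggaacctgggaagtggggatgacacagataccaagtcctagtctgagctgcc
Kcne4: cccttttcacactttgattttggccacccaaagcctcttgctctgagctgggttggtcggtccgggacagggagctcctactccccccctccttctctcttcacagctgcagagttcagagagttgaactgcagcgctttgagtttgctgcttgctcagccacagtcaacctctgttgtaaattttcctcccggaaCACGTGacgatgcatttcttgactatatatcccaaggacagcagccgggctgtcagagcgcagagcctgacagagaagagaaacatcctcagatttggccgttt
Kcnmb1: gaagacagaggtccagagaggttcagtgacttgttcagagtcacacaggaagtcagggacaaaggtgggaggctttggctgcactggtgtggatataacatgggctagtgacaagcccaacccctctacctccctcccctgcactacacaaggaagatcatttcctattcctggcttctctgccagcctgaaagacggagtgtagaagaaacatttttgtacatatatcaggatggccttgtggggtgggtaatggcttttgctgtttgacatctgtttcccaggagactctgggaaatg

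Promoters were at hand for 65 of the 90 members, 89 sequences in all, and 44.9% of them held a core, against 43.8% of 32851 mouse promoters. The palindrome of Kcne4 began 54 bases before the start, the core of Kcnj3 lay 55 bases and that of Kcnj9 103 bases before it, and the windows of Kcnj12 and Kcnmb1 held none. The 9 genes that fell had 15 promoters, and 4 held a core, those of Kcna4, Kcne1l, Kcnj3 and Kcnj9, each with 1 start. Kcnc2, Kcnip3 and Kcnip4 counted with 4, 3 and 2 starts, none with a core, so the share by promoter is lower than by gene. No member promoter held a CArG box, the letters bound by serum response factor, which 1.63% of all promoters held. A match is a description of letters, not a binding site.

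Kcnc2 encodes Kv3.2, a channel of fast-spiking neurons. Its values were 65.8, 65.7, 52.6 and 64.5 normalized CPM in RA-PBS, 35.5, 35.7, 36.8 and 39.4 in O2-PBS, and 48.3, 49.1 and 44.5 in O2-IC100. The 3 groups were separate, with O2-IC100 in between, and O2-PBS was lower than RA-PBS by -0.75 (SE 0.0873, adjusted p = 0.000242, edgeR's quasi-likelihood test). Of its family, Kcnc1 and Kcnc4 (Kv3.4) did not pass, at -0.36 and -0.45. Kcna4, the A-type channel Kv1.4, was at 18.2, 12.1, 11.2 and 11.6 in RA-PBS and at 8.22, 8.55, 9.81 and 7.77 in O2-PBS. These groups did not overlap (log2 fold change -0.63, SE 0.169, adjusted p = 0.0365, edgeR), and O2-IC100 at 11.5, 8.63 and 9.79 overlapped with both.

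KChIPs are calcium-binding subunits of the Kv4 channels, and all 4 had a log2 fold change below 0 in O2-PBS, with a median of -0.59. Kcnip4 (KChIP4) was at 52.9, 37.4, 33.8 and 56.0 normalized CPM in RA-PBS and at 29.1, 26.6, 26.4 and 28.2 in O2-PBS. Kcnip3 (KChIP3, also known as the transcriptional repressor DREAM) was at 59.6, 43.0, 38.5 and 47.1 and at 32.7, 27.5, 27.6 and 32.7. Both genes were lower in every O2-PBS retina than in every RA-PBS retina, by -0.71 (SE 0.144, adjusted p = 0.00934) and -0.64 (SE 0.123, adjusted p = 0.00649) with edgeR. Kcnip2 at -0.53 (adjusted p = 0.00847, edgeR) stayed under the fold of 1.5, and Kcnip1 was at -0.12. The pore-forming Kv4 genes Kcnd1, Kcnd2 and Kcnd3 had no member past the thresholds. Their log2 fold changes were between -0.55 and 0.17 with a median of -0.34. An unadjusted p under 0.05 was reached by 2 of the 3 with edgeR. Kcnd2 passed without RA-PBS animal 4 and without O2-PBS animal 8.

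Kcnk1, the weak inward rectifying leak channel TWIK1, was at 51.0, 28.6, 33.2 and 50.2 normalized CPM in RA-PBS, at 21.7, 25.8, 25.3 and 26.9 in O2-PBS, and at 36.5, 40.2 and 38.5 in O2-IC100. Kcne1l, an X-linked KCNE subunit, was at 13.4, 5.56, 6.29 and 7.82 in RA-PBS, at 4.51, 3.76, 4.75 and 4.96 in O2-PBS, and at 8.96, 8.31 and 7.93 in O2-IC100. For both genes every O2-PBS value was below every value of the other 2 groups. Against RA-PBS, Kcnk1 fell by 0.71 on the log2 scale (SE 0.164, adjusted p = 0.018) and Kcne1l fell by 0.88 (SE 0.241, adjusted p = 0.0404) with edgeR. RA-PBS animal 1, which was highest for Kcne1l, Kcna4, Kcnip3 and Kcnk1, decided these 4 calls. Without it 6 members fell in O2-PBS in place of 9, with Kcnj13 (Kir7.1) gained. Kcne1l also lost its call without O2-PBS animal 6, and Kcne1l and Kcna4 with a Y-linked covariate. Without RA-PBS animal 4 the count was 14, with Kcnip4 lost.

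Of the 3 genes that rose, 2 are known to meet in channel complexes. Kcnq1 is a voltage-gated pore whose current KCNE subunits shape, and Kcne4 is a KCNE subunit known to inhibit it. Kcnq1 was at 1.13, 1.17, 1.47 and 0.934 normalized CPM in RA-PBS, at 5.30, 2.83, 2.69 and 5.63 in O2-PBS, and at 1.78, 1.77 and 1.09 in O2-IC100. Every O2-PBS value was above all others. Kcnq1 was higher in O2-PBS than in RA-PBS by 1.80 on the log2 scale (SE 0.313, adjusted p = 0.00342, edgeR's quasi-likelihood test), with 43 to 92 counts per O2-PBS retina and 16 to 24 per RA-PBS retina. The antisense transcript Kcnq1ot1 overlaps an exon of Kcnq1, and strandedness of the libraries is not given in the sources used here, so reads of the pair cannot be told apart where they overlap. The same holds for overlaps of Kcnj3, Kcnj9, Kcnk1, Kcnip4, Kcnma1 and Kcnq5 with opposite-strand transcripts that carry only model or clone identifiers. It also holds for Kcnj13, which overlaps the opposite-strand gene Gigyf2.

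Kcne4 was at 0, 0.318, 0.549 and 0.642 normalized CPM in RA-PBS, at 1.33, 1.5, 1.56 and 1.77 in O2-PBS, and at 1.36, 0.697 and 1.09 in O2-IC100. A count of 0 in animal 1 allows up to 0.188 CPM, from 3 counts, for counting error only. Kcnmb1 was at 0.188, 0.530, 0.855 and 0.350 in RA-PBS, at 2.32, 1.16, 1.06 and 1.84 in O2-PBS, and at 0.712, 0.804 and 0.875 in O2-IC100. Neither gene overlapped between O2-PBS and RA-PBS, and both rested on at most 35 counts per retina. The log2 fold changes against RA-PBS were 2.00 for Kcne4 (SE 0.556, adjusted p = 0.0419) and 1.71 for Kcnmb1 (SE 0.444, adjusted p = 0.0307) with edgeR. The pore that Kcnmb1 modulates, Kcnma1, was at 290.5 ± 44.5 CPM in RA-PBS and 204.4 ± 9.40 in O2-PBS, and its log2 fold change of -0.51 (adjusted p = 0.00801, edgeR) lay under the fold of 1.5. Without O2-PBS animal 5 Kcnmb1 lost its call (adjusted p = 0.109), and without O2-PBS animal 8 Kcne4 and Kcna4 lost theirs.

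**Figure D3:**
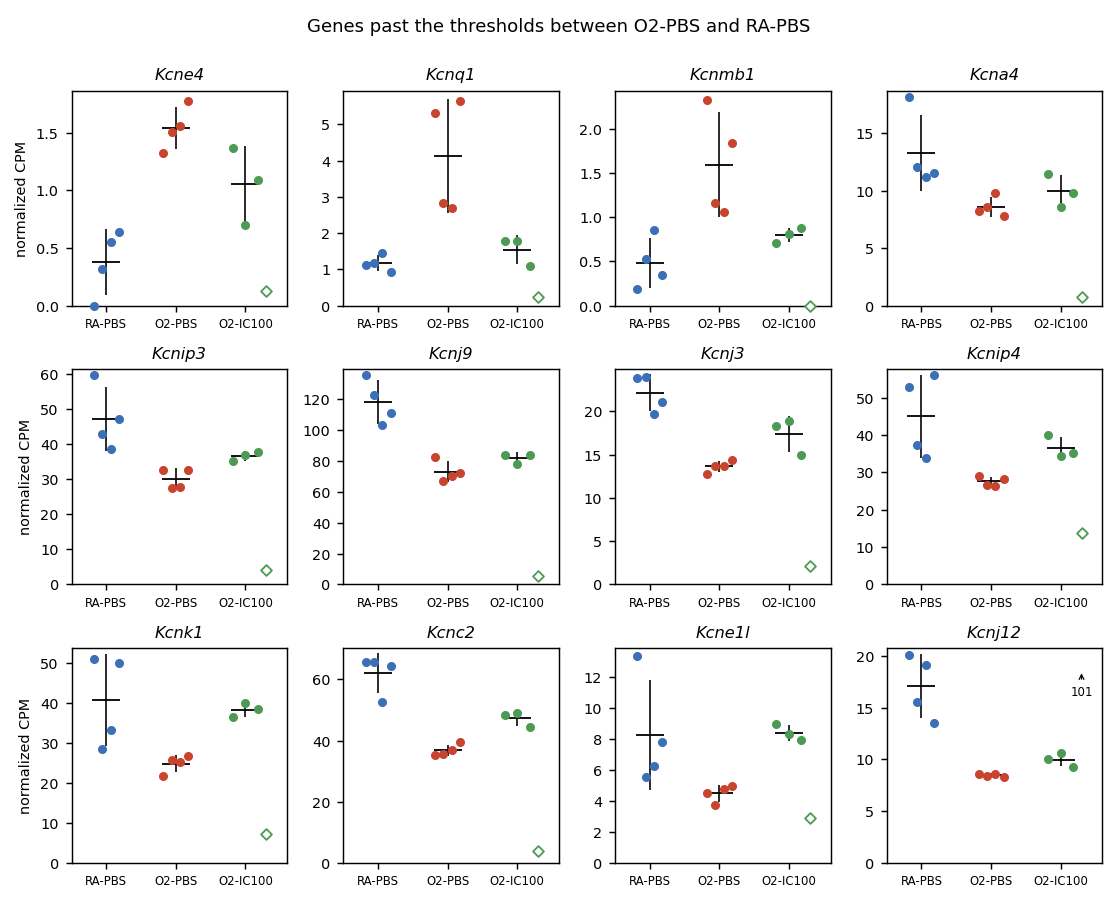
Normalized CPM (y axis, from 0) by group of the 12 potassium channel genes past the thresholds between O2-PBS and RA-PBS, with 1 point per animal and mean ± SD in black (n = 4, 4 and 3). The open diamond, outside the mean, is O2-IC100 animal 10 under the normalization of all 12 animals, which raised its values. An arrow gives its value where it lies above the axis. In each panel the O2-PBS points lie entirely above or entirely below the RA-PBS points. The genes were chosen by a test of these same values, which favours such separation.

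Markers of other cell types were set beside these genes. The mural list holds Abcc9 and Kcnj8, and the Müller list Kcnj10 and Aqp4, which are also potassium handling partners. In O2-PBS against RA-PBS, 8 of 10 pericyte and mural cell markers rose, and their summed level was 192 to 228 normalized CPM in RA-PBS, 400 to 581 in O2-PBS and 348 to 420 in O2-IC100. Of the endothelial markers 8 of 10 rose, with sums of 267 to 383, 523 to 593 and 387 to 435 in the same order. Amacrine cell markers had 0 of 10 past the thresholds, all below 0, with sums of 1488 to 1935, 1200 to 1317 and 1354 to 1429. Bipolar cell markers summed to 1658 to 2071, 1538 to 1776 and 1577 to 1609, and 1 of 10 fell. Ganglion cell markers summed to 1179 to 1708, 960 to 1031 and 1139 to 1198, and 1 of 11 fell. Horizontal cell markers summed to 385 to 541, 340 to 369 and 399.7 to 431, and 1 of 6 fell. Müller glia markers summed to 4090 to 5597, 3218 to 3592 and 3910 to 4282, with 2 of 10 lower and 1 higher. Of 10 microglia markers 3 rose in O2-PBS, with sums of 56.7 to 117, 105 to 137 and 133 to 163. In O2-IC100 against RA-PBS, 6 of 10 microglia, 6 of 10 endothelial and 1 of 10 mural markers were higher. Of all tested genes 0.947% were higher in that comparison. No marker of these lists was at 0 in any of the 11 retinas. The part of cell composition in the channel results was not tested, and in whole retina fewer cells of a type and less RNA per cell cannot be told apart.

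Rod markers gave sums of 39073 to 46401 normalized CPM in RA-PBS, 39570 to 46963 in O2-PBS and 40678 to 44839 in O2-IC100, with 0 of 10 past the thresholds, and cone markers 1156 to 1383, 1162 to 1431 and 1340 to 1471, with 0 of 9. The photoreceptor channel gene Kcnv2 did not pass either. It was at 530.8, 591.5, 563.1 and 642.8 CPM in RA-PBS, at 549.2, 671.6, 544.9 and 585.4 in O2-PBS, and at 624.1, 604.6 and 638.5 in O2-IC100. The groups overlapped, and the log2 fold change between O2-PBS and RA-PBS was 0.01 (SE 0.0917).

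Treatment was addressed by O2-IC100 against O2-PBS. Of the 76 tested members 1 fell and 0 rose, where 0.731% and 0.216% of all tested genes did, so neither count stood apart from the background. The gene was Kcnq1, whose O2-IC100 values of 1.09 to 1.78 normalized CPM lay below the O2-PBS values of 2.69 to 5.63 (log2 fold change -1.41, SE 0.335, adjusted p = 0.0929 by edgeR's quasi-likelihood test). The call did not hold without any one of O2-PBS animals 5, 7 and 8 or O2-IC100 animals 9, 11 and 12, with adjusted p up to 0.349, nor with a Y-linked covariate. The median log2 fold change of the members was -0.02, with 40 of 76 below 0, beside 0.00 and 49.5% for all tested genes. An unadjusted p under 0.05 was reached by 16 members (21.1%), near the 19.2% of all tested genes, and DESeq2 called 2 higher and 2 lower.

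Among the genes that fell in O2-PBS, Kcne1l and Kcnk1 had the largest differences between O2-IC100 and O2-PBS, 0.90 (SE 0.256, adjusted p = 0.131) and 0.62 (SE 0.175, adjusted p = 0.129), and did not pass with edgeR, although the groups did not overlap. Both passed with DESeq2. Kcnj12 was at 0.24 (SE 0.145), Kcnc2 at 0.36 (SE 0.0937), Kcnj3 at 0.35 (SE 0.118) and Kcnj9 at 0.17 (SE 0.103) in this comparison, none past the thresholds. Among the genes that rose in O2-PBS, Kcnmb1 was at -0.99 (SE 0.461, adjusted p = 0.261, edgeR) and Kcne4 at -0.55 (SE 0.547). Kcnk10, the mechanosensitive leak channel TREK2, was at 3.05, 2.49, 2.25 and 2.39 CPM in O2-PBS and 1.42, 1.29 and 0.930 in O2-IC100, lower in every O2-IC100 retina, and did not pass (log2 fold change -1.06, SE 0.333, adjusted p = 0.158, edgeR), though it did with DESeq2. This comparison and the first share the O2-PBS retinas, so a high or low value in them moves both in opposite directions. Of pericyte and mural markers 3 of 10 and of endothelial markers 2 of 10 fell in O2-IC100 against O2-PBS.

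With animal 10 included, edgeR called 0 members in either direction, and 0% of all tested genes in both directions, with 6 members at an unadjusted p under 0.05 (7.89%, below the 16.9% of genes tested in both fits). DESeq2 on all 12 animals called 0 higher and 2 lower. The median of the members then shifted to -0.23, and Kcnj12 and Kcnj13 had log2 fold changes of 2.04 and 3.19. In animal 10 Kcnj13, the rectifier of the pigment epithelium, was at 55.7 CPM against at most 5.05 in the other retinas. Kcnh1, Kcnh3, Kcnj11, Kcnq5 and Kcnt2 also had their highest value in animal 10. These values are under the normalization of all 12 animals, which raised those of animal 10 as described for Kcnj12.

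O2-IC100 was also set against RA-PBS, as the difference of treated mice from room air. Of 76 tested members 6 fell and 0 rose, where 0.617% and 0.947% of all tested genes did. The 6 were Kcnj12 (-0.77, SE 0.144, adjusted p = 0.0337), Kcnc4 (-0.66, SE 0.148, adjusted p = 0.0594), the acid-sensitive leak channel Kcnk9 or TASK3 (-0.65, SE 0.156, adjusted p = 0.0727), Kcnb2 or Kv2.2 (-0.64, SE 0.124, adjusted p = 0.0381), Kcnip2 or KChIP2 (-0.62, SE 0.115, adjusted p = 0.0337) and the axonal delayed rectifier Kcna2 or Kv1.2 (-0.60, SE 0.116, adjusted p = 0.0394), all log2 fold changes from edgeR's quasi-likelihood test. Of these, Kcnj12 had also passed in O2-PBS against RA-PBS, and the other 5 had there -0.45, -0.54, -0.39, -0.53 and -0.40, in the same order. The 2 comparisons share the RA-PBS retinas.

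Kcna2 was at 109.6, 134.9, 107.6 and 90.7 normalized CPM in RA-PBS, at 90.9, 81.3, 80.9 and 81.6 in O2-PBS, and at 79.1, 72.2 and 68.3 in O2-IC100. Its O2-IC100 values were the lowest 3, and O2-PBS animal 5 reached into the RA-PBS range. Kcnb2, at 25.2, 29.1, 23.0 and 20.2 in RA-PBS, at 17.5, 19.1, 18.7 and 19.1 in O2-PBS and at 15.4, 16.7 and 14.8 in O2-IC100, was separate in all 3 groups in the same order. Kcnip2 was at 24.9, 23.9, 21.9 and 26.3, at 17.8, 15.4, 16.1 and 18, and at 16.4, 13.8 and 17.2. Both oxygen-exposed groups of Kcnip2 lay below RA-PBS and overlapped with each other. Kcnk9 had the same arrangement, at 40.8, 56.9, 42.1 and 34.3 in RA-PBS, 33.5, 28.5, 27.3 and 30.6 in O2-PBS and 30.3, 29.8 and 23.1 in O2-IC100. Kcnc4 was at 42.6, 39.5, 28.2 and 31.1 in RA-PBS, at 29.4, 21.8, 24.9 and 27.7 in O2-PBS and at 23.9, 21.7 and 21.5 in O2-IC100, and its O2-PBS values overlapped with both other groups.

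**Figure D4:**
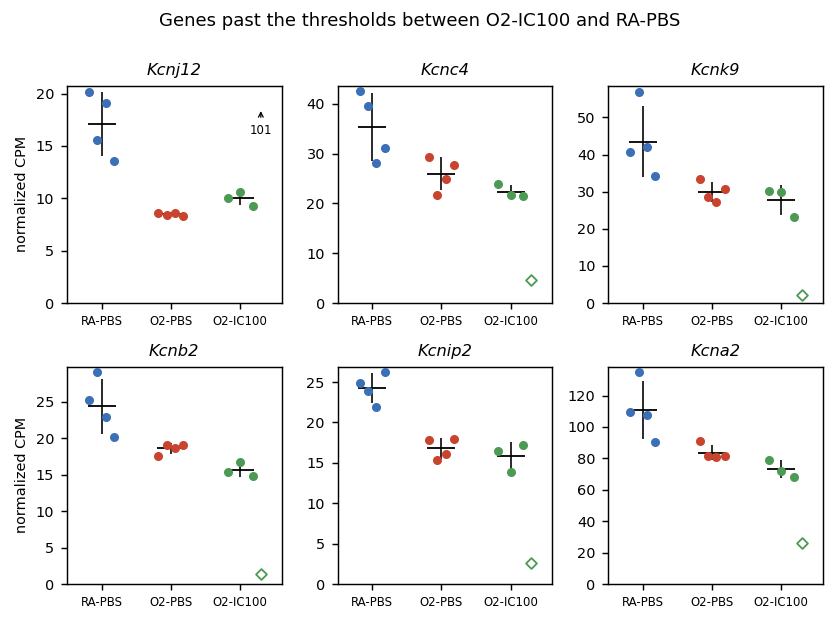
Normalized CPM (y axis, from 0) by group of the 6 potassium channel genes past the thresholds between O2-IC100 and RA-PBS, with 1 point per animal and mean ± SD in black (n = 4, 4 and 3). The open diamond is O2-IC100 animal 10 under the normalization of all 12 animals, which raised its values. An arrow marks its value of 101 for Kcnj12. The 3 filled O2-IC100 points lie below all 4 RA-PBS points in every panel, which the choice of genes by a test of these values favours.

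These calls rested on few retinas. With all 12 animals Kcnj12 turned to 1.03 on the log2 scale, and all 6 calls were lost when the fit held only the 2 groups compared. Without O2-IC100 animal 11 or 12 there were 0 members that fell against RA-PBS, without O2-IC100 animal 9 there was 1, without RA-PBS animal 2 there were 2 and without RA-PBS animal 4 there were 13, among them Kcna1 (Kv1.1), Kcnc1 and Kcnh1 but not Kcnip2. Kcnc4 also lost its call without RA-PBS animal 1, and Kcnk9 without any one of O2-PBS animals 6, 7 and 8. The median of the members was -0.30, with 56 of 76 below 0, beside 0.02 and 47.5% for all tested genes, and 32 (42.1%) had an unadjusted p under 0.05, beside 15.6% of all tested genes. DESeq2 called 9 lower and 0 higher. With all 12 animals edgeR called 0 members and 0% of all genes in both directions, with 11 members at an unadjusted p under 0.05 (14.5%, near the 13.2% of genes tested in both fits). DESeq2 on all 12 called 1 lower, and the median was -0.49.

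Several other members known from vessels, glia or immune cells did not pass any comparison. Kcnn3 (SK3), which endothelium uses with Kcnn4 to hyperpolarize, was at 3.50 ± 0.591 normalized CPM in RA-PBS, 3.73 ± 0.483 in O2-PBS and 2.49 ± 0.0292 in O2-IC100. Kcnj16 (Kir5.1), a partner of Kir4.1, was at 0.9 ± 0.136, 0.8 ± 0.0877 and 0.728 ± 0.174. Kcnk13 (THIK1), a leak channel of microglia, was at 0.791 ± 0.517, 0.627 ± 0.258 and 0.614 ± 0.0584, and Kcna3 (Kv1.3), used by lymphocytes and microglia, at 8.35 ± 1.26, 6.59 ± 0.967 and 6.42 ± 1.39. Kcnj13 was at 0.188, 4.29, 5.56 and 3.50 in RA-PBS and at 1.33, 2.83, 1.25 and 2.14 in O2-PBS. It varied more within RA-PBS than between groups. On the log2 scale O2-IC100 was at 0.67 against O2-PBS and at -0.16 against RA-PBS. Its lowest value was in RA-PBS animal 1, the retina of that group with almost no lens counts (0.00119%). O2-PBS animals 5 and 8, with Kcnj13 at 1.33 and 2.14, had lens shares of 0.00123% and 0.00129%. Pigment epithelium markers summed to 123 to 340 CPM in RA-PBS, 53.9 to 151 in O2-PBS and 145 to 170.5 in O2-IC100. Of these markers 5 of 8 fell in O2-PBS against RA-PBS. The part of lens or pigment epithelium tissue in the Kcnj13 values was not tested.

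The partner genes of potassium handling are pumps, cotransporters, sulfonylurea receptors, other channel partners and the 3 excepted Kcn genes. Of 32 listed genes 31 were tested, and in O2-PBS against RA-PBS 2 rose and 1 fell, where 4.09% and 2.18% of all tested genes did, so these counts were near the background. Kcne3, the KCNE subunit that holds Kcnq1 open, was at 0, 0.0530, 0.244 and 0.117 normalized CPM in RA-PBS and at 1.59, 0.694, 1.38 and 0.979 in O2-PBS. Its log2 fold change was 3.40 (SE 0.597, adjusted p = 0.00373, edgeR), and it was the 1 gene of the list past the thresholds with all 12 animals (adjusted p = 0.0321). Abcc9, the sulfonylurea receptor SUR2 of vascular potassium channels, rose by 0.76 (SE 0.150, adjusted p = 0.00784), and its pore Kcnj8 (Kir6.1) did not pass at 0.58 (SE 0.204, adjusted p = 0.103). Kcnj10 fell by 0.63 (SE 0.125, adjusted p = 0.00837, edgeR). Kcne3 and Kcnj10 match the name pattern of the members but are not in the member counts given above.

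In O2-IC100 against O2-PBS, Abcc9 fell by 0.84 (SE 0.164, adjusted p = 0.0484, edgeR) and Aqp4, the water channel of Müller glia, rose by 0.66 (SE 0.151, adjusted p = 0.0823). Against RA-PBS, Kcne3 was higher by 3.17 (SE 0.625, adjusted p = 0.0415) and Dpp6, a Kv4 auxiliary subunit, lower at -0.61 (SE 0.159, adjusted p = 0.0897) with edgeR. The partner genes had medians of -0.10, -0.06 and -0.09 in the 3 comparisons.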

How the data were processed

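RNA of 12 retinas was sequenced after polyA selection as 150 bp paired-end reads. Per the study's methods, the authors ran Kallisto against mouse build GRCm39_104 and tximport for sums by gene. The values they deposited are expected counts without normalization, 42.2% of them not whole. Groups came from the labels. Symbols came from a mouse table of Ensembl identifiers and names, which matched 35374 of 36131 genes. Exonic lengths for TPM came from GENCODE M21, whose build, GRCm38, differs from the authors', so no gene positions besides RefSeq promoters are given.

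Counts were rounded and tested in R 4.3.3 with edgeR 4.0.16 (TMM, filterByExpr, robust quasi-likelihood F test, two-sided, 3 groups in 1 model) without animal 10. Benjamini-Hochberg adjustment ran over all 16688 tested genes. Replicates are separate mice. Intervals and limits from counts cover counting error only. The members and lists, and the choice to leave out animal 10, were made with earlier results of these data known. Alternatives were DESeq2 1.42.0, limma 3.58.1 with voom, other normalizations and filters, Y-linked and lens covariates, 2-group fits and each animal left out. The procedure was checked on simulated data. Some items are not reported here, while counts and medians over the members include them.

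Named genes were every member past the thresholds, the 12 with the highest level per length, the 2 largest changes per comparison and direction at a mean of at least 1 CPM, a list of textbook retinal channels, and other members only by count or as exceptions chosen after their values were seen (Kcnh1, Kcnh3, Kcnj11, Kcnt2, Kcnip1 and the Kv4 genes).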

Additional observations from a re-analysis of the deposited data

Results flagged for a closer look

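In the 70 groups of 4 animals looked at, for 35 named genes, 4 had 1 animal far from the other 3, and chance flags about 1 in 20 groups. Kcna4 was at 18.2 normalized CPM in RA-PBS animal 1 and at 11.2 to 12.1 in the others, and Kcnn3 at 4.38 in the same animal against 3.11 to 3.33. Kcnc2 was at 52.6 in RA-PBS animal 3, the retina with the most lens counts of that group, against 64.5 to 65.8. O2-PBS animal 5 was at 90.9 for Kcna2 against 80.9 to 81.6. No cause was tested for any of them.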

How the results depend on the processing

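The fits compared with the reported one were 24 in all. No paired analysis was possible because the animal numbers 1 to 12 are not shared between groups. For O2-PBS against RA-PBS, members higher and lower were 0 and 0 with all 12 animals (DESeq2: 0 lower), and 8 and 17 with a lens covariate, which also moved the median to -0.36. Leaving out 1 animal gave 2 to 4 higher and 6 to 14 lower. Kcnj12, Kcnc2, Kcnj3 and Kcnj9 lost this call in the all-12 fits of edgeR and DESeq2 and in no other, and Kcnq1 in edgeR's alone.

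For O2-IC100 against O2-PBS, 2 members were higher and 2 lower with DESeq2, with the lens covariate and without animals 1 and 10, which equals leaving out RA-PBS animal 1. With only the 2 groups compared 2 were higher and 4 lower. None was lower with all 12 animals, voom, the fit that is not robust, the Y-linked covariate or an adjusted p under 0.05 (0 each), and 2 with DESeq2 on all 12. Leaving out 1 animal gave 0 to 2 higher and 0 to 2 lower. The median was -0.23 in both all-12 fits.

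For O2-IC100 against RA-PBS, 0 members were lower with all 12 animals and with only the 2 groups compared, 1 with DESeq2 on all 12, and 11 with the Y-linked covariate. The lens covariate gave 3 higher and 20 lower. Leaving out 1 animal gave 0 to 1 higher and 0 to 13 lower. The median was -0.49 in both all-12 fits. Directions turned for Kcnj12 in this comparison, at 1.03 with all 12 animals and 1.09 with DESeq2 on them, and for Kcnj13 with the lens covariate, at 2.54 in O2-PBS and 3.00 in O2-IC100 against RA-PBS. Kcnj13 in O2-IC100 against RA-PBS also turned with all 12 animals, to 2.35, and with DESeq2 on them, to 2.43. The cause was not tested. The 3 genes that rose in O2-PBS had under 100 counts per retina, which limits their precision.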
